A study of Mus musculus with 12 samples.

Results

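The 9 genes followed here belong to the fibroblast growth factor (FGF) system and were measured in U2OS cells, a human osteosarcoma line. They were the 4 ligand genes FGF1, FGF2, FGF5 and FGF21 and the 5 receptor genes FGFR1, FGFR2, FGFR3, FGFR4 and FGFRL1. They were found by full name among the 58735 genes of the deposited table. All 9 were found. The ligand genes were chosen by their measured FPKM, with earlier results of these libraries in view. The receptor genes were the whole receptor family, and the 4 ligand genes coincide with those of the 18 secreted FGF genes with a mean FPKM (fragments scaled to gene length and library size) of at least 0.5. FGF5 was the lowest of these 4 with a mean of 1.10 over the 12 libraries, and FGF18 lay just under that level with 0.482.

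FGF ligands are secreted proteins that bind receptor tyrosine kinases at the cell surface together with heparan sulfate chains. The activated receptor recruits adaptors, switches on the RAS-ERK relay and induces its own inhibitors, among them the Sprouty proteins and the phosphatase DUSP6. FGF21 differs from most of the family, since it circulates as a hormone and needs the co-receptor β-Klotho. In bone, FGF signalling is best known for its part in the growth plate and in osteoblast maturation, and mutations of FGFR1, FGFR2 and FGFR3 cause disorders of the skeleton.

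The 12 libraries formed 4 groups of 3 replicates. The first group was labelled blank, with no further word on its handling, 2 groups received the siRNA siSRSF1-2 or siSRSF1-3 against the splicing factor SRSF1, and the group OE-LINC01134 overexpressed the long non-coding RNA LINC01134. The samples held no library from cells given a control siRNA or an empty vector, so the agent and its delivery cannot be told apart in any comparison with blank cells. The labels gave mouse as the organism, but the listed genes were human. The methods gave fewer biological replicates per condition than there are libraries in a group, and a figure legend gave as many repeats as libraries. Neither said which libraries came from separate cultures, so the p-values measure only the spread between these libraries. U2OS is a single line, and the methods placed transient transfection in HOS, another osteosarcoma line.

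Reads on genes numbered 26237763 to 32954539 per library. SRSF1 had FPKM between 19.8 and 35.9 in the blank libraries, between 7.09 and 7.46 with siSRSF1-2, between 3.33 and 7.90 with siSRSF1-3 and between 29.6 and 31.8 with OE-LINC01134. LINC01134 had FPKM between 878 and 1279 in OE-LINC01134 libraries and of at most 1.11 in all others. The osteoblast and mesenchymal markers VIM, COL1A1, SPARC, RUNX2, SPP1 and ALPL were present in every library, while COL1A2 was at or near 0. The epithelial markers EPCAM and CDH1 had FPKM between 0.345 and 2.43, KRT5 and the endothelial markers PECAM1 and CDH5 stayed at or under 0.368, and the blood markers PTPRC, CD3E and CD68 at or under 0.126. Replicates were unequally alike. Blank replicate 1, OE-LINC01134 replicate 2 and all 3 siSRSF1-3 libraries differed from their group mates by a chi-square per degree of freedom of at least 63.2, against at most 3.20 among the remaining pairs within groups. The deposited scaling also treated siSRSF1-3 unlike the rest, with an implied library size of 0.712 times the own read total in replicate 1 and 0.888 times in replicate 2.

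Groups were compared on log2(FPKM + 0.1) with limma over 17538 genes. Fold changes below are on that scale, each with its standard error (SE). The threshold for a call combined 2 limits, an adjusted p below 0.05 by the Benjamini-Hochberg method and a log2 fold change beyond 1 in either direction. The filter kept 8 of the 9 FGF genes and removed FGFR3. These genes were listed with earlier results of the same libraries known, so their values describe them, and the number that passed is set beside the percent of all genes that passed. The 3 comparisons with blank cells share the blank libraries, and the comparison of the siRNAs shares its libraries with both others.

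FGF21, an endocrine ligand that is also a target of the stress factor ATF4, showed the widest range of the 4 ligand genes. Its gene, ENSG00000105550, is listed on the plus strand of chromosome 19 from 48755559 to 48758333, in a build not given in the sources used here. The blank libraries had FPKM of 6.10, 7.57 and 6.07, and the siSRSF1-2 libraries 6.96, 5.28 and 6.11. The siSRSF1-3 libraries had 29.2, 25.2 and 17.4, and the OE-LINC01134 libraries 55.3, 28.3 and 52.4. Every siSRSF1-3 and OE-LINC01134 library thus lay above every blank library, while siSRSF1-2 overlapped with blank. Means ± SD over 3 libraries came to 6.58 ± 0.860 for blank, 6.12 ± 0.843 for siSRSF1-2, 23.9 ± 5.98 for siSRSF1-3 and 45.3 ± 14.8 for OE-LINC01134.

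Against blank cells, FGF21 rose by a log2 fold change of 1.82 with siSRSF1-3 (SE 0.236, limma adjusted p = 0.0426) and of 2.71 with OE-LINC01134 (SE 0.266, limma adjusted p = 0.0199). With siSRSF1-2 the difference was -0.10 (limma adjusted p = 0.609). The siRNAs differed from each other by 1.93 on the log2 scale (limma adjusted p = 0.0515), which missed the threshold. The size was stable when single libraries were left out, from 1.66 to 2.03 for siSRSF1-3 and from 2.54 to 3.02 for OE-LINC01134. The call was lost without siSRSF1-3 replicate 1 or 2 or any blank library in the siSRSF1-3 comparison, and without OE-LINC01134 replicate 1 or 3 or blank replicate 2 or 3 in the OE-LINC01134 comparison, with adjusted p up to 0.219 and 0.224 over all alternatives.

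The gene most like FGF21 over the 12 libraries was its closest listed neighbour FUT1, a fucosyltransferase of the H blood group antigen. FUT1 is listed on the minus strand of chromosome 19 from 48748011 to 48755390, so the listed starts of both genes face away from each other across a gap of 168 bases. Its FPKM were 4.63, 6.99 and 6.41 in blank, 7.75, 6.82 and 6.64 with siSRSF1-2, 18.5, 14.3 and 12.3 with siSRSF1-3, and 24.6, 13.9 and 24.2 with OE-LINC01134. Pearson's r of the log2 values with FGF21 was 0.974 over 12 libraries that fall into 4 groups. The copper transporter gene SLC31A1 had r = 0.973 and the kinase gene TLK2 r = 0.971. Further neighbours were looked at after the values were seen. RASIP1 had a mean FPKM of 0.797 in blank cells, 0.721 with siSRSF1-2, 1.54 with siSRSF1-3 and 1.74 with OE-LINC01134, and so was higher in the same groups as FGF21. IZUMO1 had a mean FPKM of 0.505 in blank cells, 0.459 with siSRSF1-3 and 1.82 with OE-LINC01134, and BCAT2 had 8.56, 14.3 and 8.60.

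The co-receptors that FGF21 and the other hormone-like FGFs use were scarce. KL, the gene of α-Klotho, had 0 reads in 11 libraries and 1 read in the other. KLB, the gene of β-Klotho, had between 11 and 50 reads per library and mean FPKM between 0.127 and 0.239, under the filter. The levels of FGF21 and KLB were thus more than an order of magnitude apart in every group.

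FGF2, the basic FGF that many cells make without a classical secretion signal, was next in level to FGF21 in every group but siSRSF1-2, where it led. It is listed as ENSG00000138685 on the plus strand of chromosome 4 from 122826708 to 122898236. The blank libraries had FPKM of 3.66, 4.35 and 4.21, the siSRSF1-2 libraries 7.24, 8.17 and 8.05, the siSRSF1-3 libraries 9.82, 8.40 and 7.85, and the OE-LINC01134 libraries 11.8, 7.05 and 12.8. No library of the other 3 groups overlapped with blank. FGF2 rose with siSRSF1-3 (log2 fold change 1.07, SE 0.176, limma adjusted p = 0.0462). With siSRSF1-2 the log2 fold change was 0.93 (SE 0.0970, limma adjusted p = 0.00269), under the minimum fold, and with OE-LINC01134 it was 1.31 (SE 0.236, limma adjusted p = 0.0535), with an adjusted p over the threshold. The siRNAs differed by 0.15 (limma adjusted p = 0.395). The siSRSF1-3 call was lost in 13 of the 18 alternatives, with a log2 fold change between 0.63 and 1.14.

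The 3 genes whose log2 values were most like those of FGF2 were MBD6 (r = 0.978), a gene listed as ATP synthase subunit s (r = 0.972), and KMT5B, a histone methyltransferase (r = 0.967). FGF2 overlaps with NUDT6 on the opposite strand over 9540 bases, with an antisense transcript over 2835 bases and with a ribosomal protein pseudogene. NUDT6 had a mean FPKM of 0.388 and the antisense transcript of 0.202. The sources used here do not state whether reads were counted by strand, so reads of such pairs cannot be told apart, but both partners lay far below FGF2.

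FGF1, the acidic FGF that binds all of the tyrosine kinase receptors, is listed as ENSG00000113578 on the minus strand of chromosome 5 from 142592178 to 142698070. Its FPKM were 3.27, 3.47 and 3.19 in blank cells, 5.30, 5.53 and 5.09 with siSRSF1-2, 7.68, 6.11 and 5.50 with siSRSF1-3, and 4.01, 1.70 and 3.93 with OE-LINC01134. Both siRNA groups lay wholly above blank, and OE-LINC01134 lay on both sides of it, with replicate 2 the lowest of all libraries. The log2 fold change was 0.67 with siSRSF1-2 (SE 0.0767, limma adjusted p = 0.00339), 0.93 with siSRSF1-3 (SE 0.188, limma adjusted p = 0.0587) and -0.13 with OE-LINC01134 (limma adjusted p = 0.814). None of these passed the threshold. Without OE-LINC01134 replicate 2 the last value was 0.26. The antisense RNA SPRY4-AS1 overlaps with FGF1 over 79824 bases at a mean FPKM of 0.0918. The genes most like FGF1 were NUTM2A-AS1 (r = 0.978), DPY19L2 (r = 0.975) and MTHFSD (r = 0.965).

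FGF5, a ligand best known for ending the growth phase of hair, was the lowest of the 4 ligand genes and the only ligand whose mean was lower than in blank cells in all 3 other groups. It is listed as ENSG00000138675 on the plus strand of chromosome 4 from 80266599 to 80336680. The FPKM were 2.18, 1.54 and 1.51 in blank, 1.33, 1.30 and 1.38 with siSRSF1-2, 0.417, 0.597 and 0.716 with siSRSF1-3, and 0.621, 0.934 and 0.653 with OE-LINC01134. No library of these groups overlapped with blank. The log2 fold change was -1.45 with siSRSF1-3 (SE 0.306, limma adjusted p = 0.0617), -1.14 with OE-LINC01134 (SE 0.248, limma adjusted p = 0.0687) and -0.34 with siSRSF1-2 (SE 0.165, limma adjusted p = 0.175), none past the threshold. Without blank replicate 1 the siSRSF1-2 value was -0.18. In 1 fit over all 4 groups and in limma's voom on the recovered reads, the siSRSF1-3 and OE-LINC01134 differences passed. The genes most like FGF5 were CTBP2 (r = 0.981), BEND3 (r = 0.980) and SQLE, the squalene epoxidase of cholesterol synthesis (r = 0.978).

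**Figure D1:**
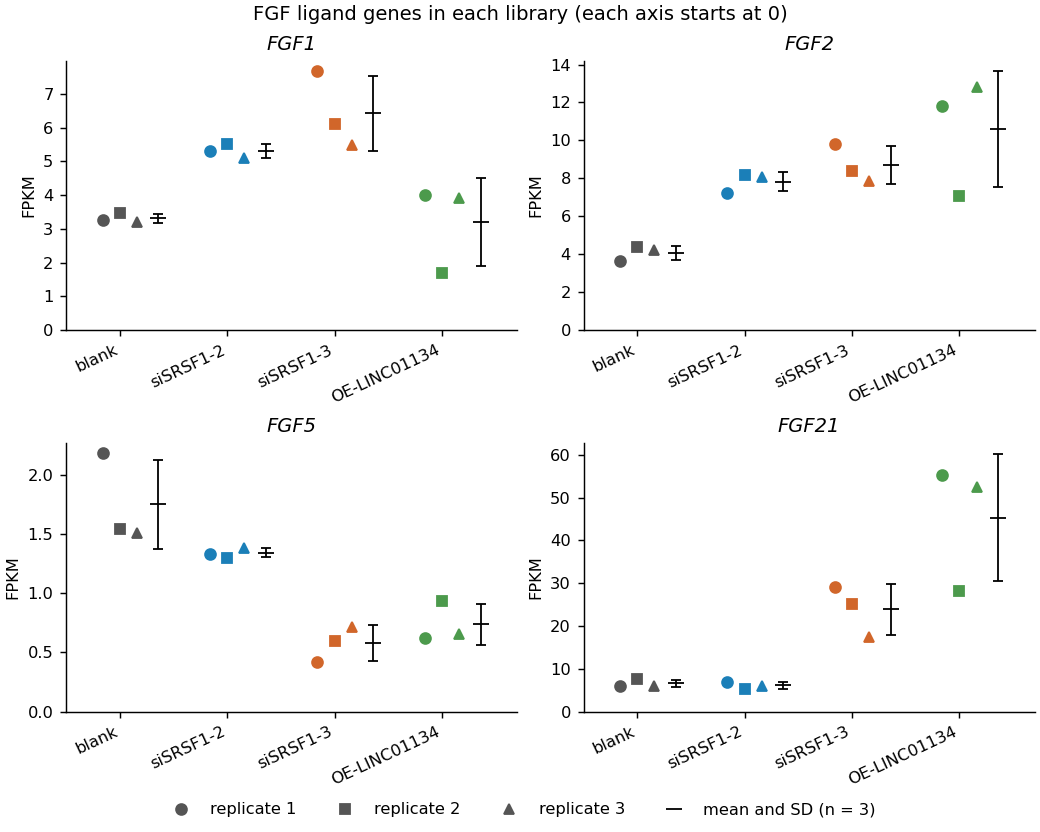
FPKM of FGF1, FGF2, FGF5 and FGF21 in each of the 12 libraries by group, with replicates 1, 2 and 3 as circles, squares and triangles and the mean ± SD (n = 3) as a black bar beside them. FGF21 lies between 5.28 and 7.57 in blank and siSRSF1-2 libraries and between 17.4 and 55.3 in siSRSF1-3 and OE-LINC01134 libraries, and OE-LINC01134 replicate 2 sits apart from its group mates for FGF1, FGF2 and FGF21.

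The other secreted ligand genes were low. All 14 fell under the filter, with group means of at most 0.824 FPKM. FGF8, a ligand of early development, had between 1 and 32 reads per library, and FGF18, a ligand of cartilage and bone, between 17 and 39. With siSRSF1-3 the mean FPKM of FGF8 (0.824) and FGF18 (0.624) lay above that of FGF5 (0.577). Among the 4 ligand genes followed here, the order was FGF21, FGF2, FGF1 and FGF5 in blank, siSRSF1-3 and OE-LINC01134 cells. Neighbours in that order did not overlap. With siSRSF1-2 the order was FGF2, FGF21, FGF1 and FGF5, and the libraries of FGF21 and FGF1 overlapped. Of the intracellular FGF homologous factors, which do not act through these receptors, FGF12 alone passed the filter, with a mean FPKM of 0.554.

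Among the receptors, FGFRL1 showed the clearest difference between the siRNAs. This receptor binds FGF ligands but lacks the tyrosine kinase domain. It is listed as ENSG00000127418 on the plus strand of chromosome 4 from 1009936 to 1026897. Its FPKM were 7.42, 11.2 and 10.5 in blank, 9.87, 10.3 and 10.5 with siSRSF1-2, 3.33, 3.67 and 4.02 with siSRSF1-3, and 9.92, 7.80 and 9.18 with OE-LINC01134. The siSRSF1-3 libraries lay below all 9 others, and the other 3 groups overlapped. FGFRL1 fell with siSRSF1-3 against blank cells (log2 fold change -1.36, SE 0.212, limma adjusted p = 0.0453) and against siSRSF1-2 (log2 fold change -1.45, SE 0.117, limma adjusted p = 0.0375). The log2 fold change against blank was 0.09 with siSRSF1-2 (limma adjusted p = 0.694) and -0.10 with OE-LINC01134 (limma adjusted p = 0.763).

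Left-out libraries moved the FGFRL1 difference between siSRSF1-3 and blank from -1.54 to -1.25, and that between the siRNAs from -1.52 to -1.39. The call against blank held only without siSRSF1-3 replicate 3 among these, and the call between siRNAs only without siSRSF1-3 replicate 1 or 3. The genes most like FGFRL1 were MOAP1 (r = 0.973), KLHL5 (r = 0.957) and the microRNA gene MIR553 (r = 0.953). MIR553 was low, with mean FPKM of 0.972 in blank, 2.89 with siSRSF1-2, 0 with siSRSF1-3 and 1.20 with OE-LINC01134.

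FGFR4, the receptor that with β-Klotho serves endocrine FGFs in liver, was the highest of the tyrosine kinase receptor genes in blank cells. It is listed as ENSG00000160867 on the plus strand of chromosome 5 from 177086886 to 177098144. Its FPKM were 9.82, 10.4 and 10.1 in blank, 5.98, 6.69 and 6.45 with siSRSF1-2, 10.3, 9.86 and 7.84 with siSRSF1-3, and 6.91, 9.44 and 6.98 with OE-LINC01134. The siSRSF1-2 libraries were lower than every library of the other groups, and siSRSF1-3 overlapped with blank. With siSRSF1-2 the log2 fold change was -0.65 (SE 0.0711, limma adjusted p = 0.00295), with a fold under the minimum. It was -0.12 with siSRSF1-3 (limma adjusted p = 0.652) and -0.39 with OE-LINC01134 (SE 0.149, limma adjusted p = 0.167), and the siRNAs differed by 0.53 (SE 0.142, limma adjusted p = 0.0801). The genes most like FGFR4 were CD70, a ligand of the tumour necrosis factor family (r = 0.972), HOXC4 (r = 0.961) and MPP1 (r = 0.955).

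FGFR1, the main receptor of mesenchymal cells, had FPKM of 4.93, 8.55 and 7.97 in blank, 8.64, 9.12 and 8.85 with siSRSF1-2, 4.80, 5.57 and 7.14 with siSRSF1-3, and 3.94, 4.29 and 4.21 with OE-LINC01134. Blank replicate 1 lay well below its group mates, at the level of siSRSF1-3 replicate 1. The log2 fold change was 0.35 with siSRSF1-2 (limma adjusted p = 0.264), -0.27 with siSRSF1-3 (limma adjusted p = 0.516) and -0.73 with OE-LINC01134 (SE 0.218, limma adjusted p = 0.106). None passed the threshold. Without blank replicate 1 these values were 0.10, -0.51 and -0.98, in the same order. LETM2, which overlaps with FGFR1 on the opposite strand over 9313 bases, had a mean FPKM of 5.38, near that of FGFR1 (6.50), so the counts of this pair are uncertain. LETM2 had FPKM between 3.14 and 3.65 in blank cells and between 4.51 and 8.12 in the other groups, a pattern unlike that of FGFR1. An unnamed antisense transcript, ENSG00000255201, overlaps over 4208 bases at a mean FPKM of 1.77. It had FPKM of 0.879, 4.02 and 2.69 in blank and 0.191, 0.737 and 2.22 with siSRSF1-3. The pseudogene RPS20P22 overlaps on the same strand over 1318 bases at a mean FPKM of 0.561. Like FGFR1, both were lowest in replicate 1 of blank and of siSRSF1-3. In OE-LINC01134 both were lowest in replicate 2, unlike FGFR1.

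FGFR2 was low. Its FPKM ranged from 0.966 to 1.96 over the 12 libraries, both ends in OE-LINC01134, and the means ± SD over 3 libraries were 1.36 ± 0.0342 for blank, 1.46 ± 0.127 for siSRSF1-2, 1.33 ± 0.334 for siSRSF1-3 and 1.62 ± 0.563 for OE-LINC01134. All groups overlapped, and no comparison had a limma adjusted p under 0.586. OE-LINC01134 replicates 1 and 3 (1.92 and 1.96) lay above every other library, and without OE-LINC01134 replicate 2 the log2 fold change against blank went from 0.17 to 0.48 (limma adjusted p = 0.0475), under the minimum fold. Gene totals do not resolve the epithelial and mesenchymal exon forms of FGFR1, FGFR2 and FGFR3, which change the ligands they bind. ESRP1, a splicing regulator that favours the epithelial form, had a mean FPKM of 1.35 ± 0.927 (SD, n = 3) in blank. Its blank libraries had 0.304, 1.70 and 2.06, so replicate 1 lay far below its group mates. The mean was 3.37 ± 0.282 (SD, n = 3) with siSRSF1-3 (log2 fold change 1.58, limma adjusted p = 0.152). With OE-LINC01134 it was 3.19 ± 1.23 (SD, n = 3; log2 fold change 1.42, limma adjusted p = 0.228). With siSRSF1-2 the mean was 1.99, with libraries between 1.67 and 2.27. The higher mean was thus not particular to siSRSF1-3, and the last 2 groups overlapped with blank. ESRP2 lay under the filter.

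FGFR3, whose activating mutations cause achondroplasia, was the lowest receptor gene. Its FPKM were 0.574, 0.878 and 0.946 in blank, 0.280, 0.265 and 0.326 with siSRSF1-2, 0.189, 0.0893 and 0.0992 with siSRSF1-3, and 0.128, 0.385 and 0.0433 with OE-LINC01134. These values stood for 77, 121 and 150 reads in blank and for between 6 and 56 reads elsewhere. Every blank library lay above every other library. With the filter removed, the log2 fold change was -1.18 with siSRSF1-2 (SE 0.228, limma adjusted p = 0.0463), past the threshold, -1.99 with siSRSF1-3 (SE 0.330, limma adjusted p = 0.0935) and -1.81 with OE-LINC01134 (SE 0.528, limma adjusted p = 0.212). A processed FGFR3 pseudogene, ENSG00000277241, had FPKM from 0.149 to 0.823 in blank and from 1.01 to 1.36 with siSRSF1-2. With siSRSF1-3 its FPKM ranged from 1.06 to 2.11, and with OE-LINC01134 from 0.289 to 0.453. In both siRNA groups the pseudogene thus lay above every blank library, while FGFR3 lay below. The pseudogene held at most 39 reads, and reads shared between such copies are uncertain. Of 9 receptor pseudogenes, 4 had 0 reads in every library.

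**Figure D2:**
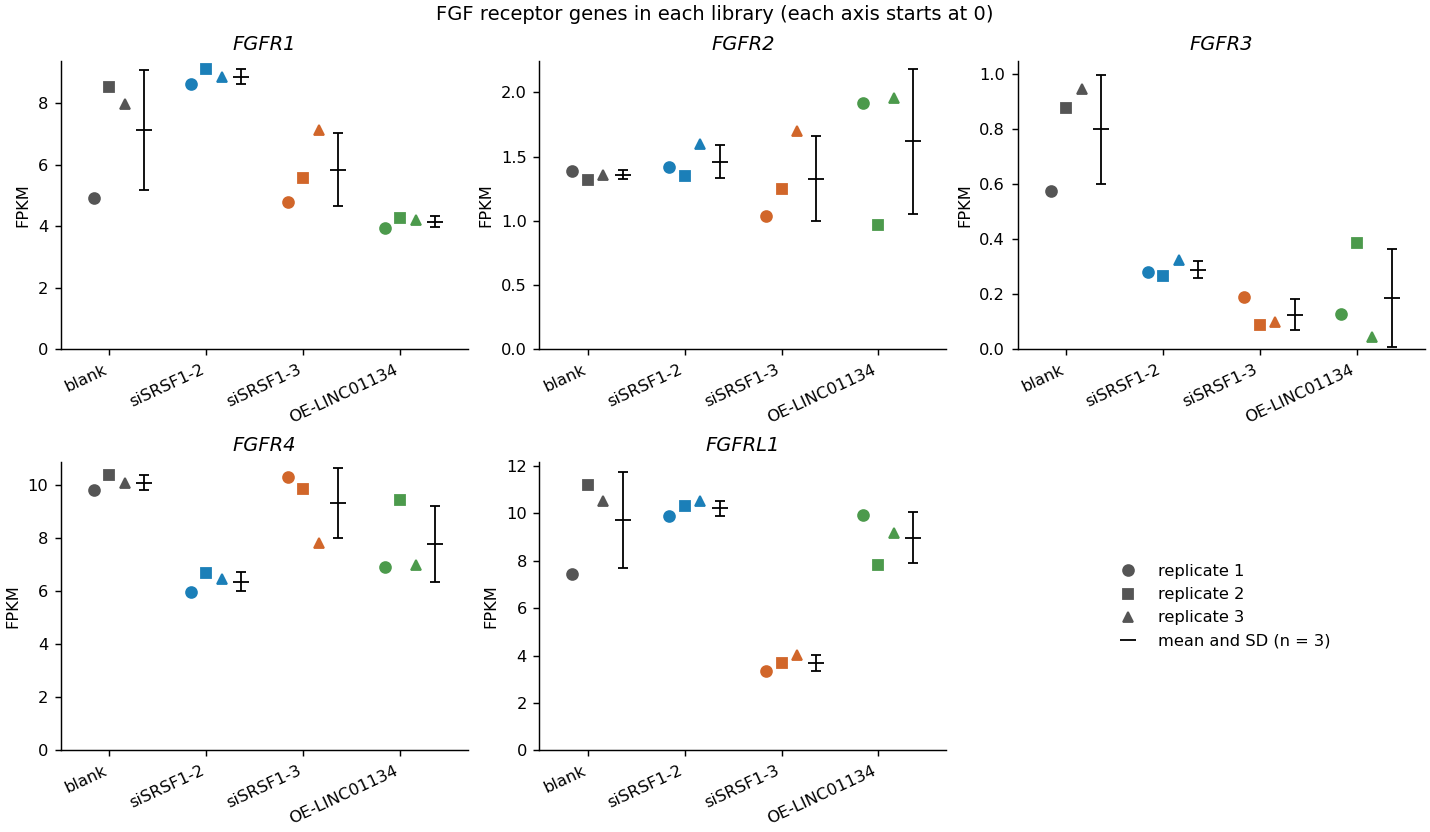
FPKM of the 5 receptor genes in each library by group, with replicates 1, 2 and 3 as circles, squares and triangles and the mean ± SD (n = 3) as a black bar. FGFRL1 is lowest in the 3 siSRSF1-3 libraries (3.33 to 4.02), FGFR4 in the 3 siSRSF1-2 libraries (5.98 to 6.69), FGFR1 in the 3 OE-LINC01134 libraries (3.94 to 4.29), and FGFR3 is highest in the 3 blank libraries.

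The makeup of the 4 tyrosine kinase receptors was also expressed as shares of their summed FPKM, a scale on which library scaling cancels. FGFR4 took 58.8%, 49.1% and 49.5% of the sum in the blank libraries, and 36.7%, 38.4% and 37.5% with siSRSF1-2. FGFR1 took 29.5%, 40.5% and 39.2% in blank and 52.9%, 52.3% and 51.4% with siSRSF1-2. The siSRSF1-2 group was thus the only group in which FGFR1 led FGFR4, and its shares did not overlap with those of blank. With siSRSF1-3 the FGFR4 share was 56.2% ± 8.47 (SD, n = 3) and with OE-LINC01134 56.4% ± 5.39 (SD, n = 3), both overlapping with blank. FGFR3 made up 4.08% ± 0.614 (SD, n = 3) in blank and between 0.328% and 2.55% in all other libraries. The summed FPKM, as mean ± SD over 3 libraries, was 19.4 ± 2.36 in blank, 16.6 ± 0.260 with siSRSF1-3 and 13.7 ± 1.18 with OE-LINC01134. In the siSRSF1-2 libraries it was 16.3, 17.4 and 17.2.

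**Figure D3:**
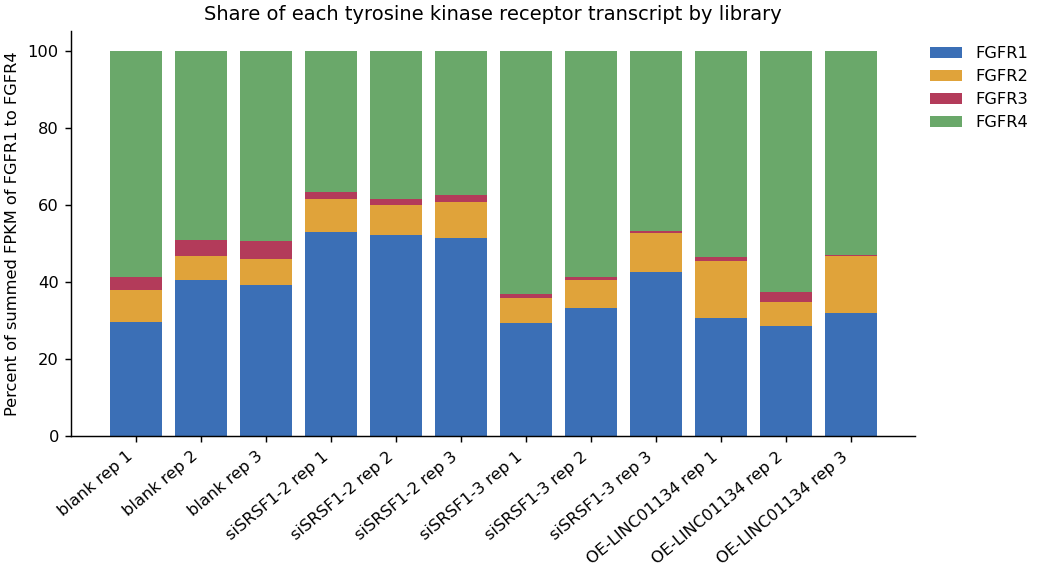
Percent of the summed FPKM of FGFR1 to FGFR4 that each receptor took, as stacked bars for the 12 libraries. FGFR1 exceeds 50% only in the 3 siSRSF1-2 bars, where FGFR4 takes 36.7% to 38.4%.

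Set beside all genes, the FGF genes passed as follows. With siSRSF1-3, 3 of 8 passed, where 1.26% of all genes tested passed. FGF21 and FGF2 were among the 0.331% called higher, and FGFRL1 among the 0.929% called lower. With OE-LINC01134, 1 of 8 passed, where 0.850% of all genes did (0.257% higher and 0.593% lower), and that gene was FGF21 on the higher side. Between siSRSF1-3 and siSRSF1-2, 1 of 8 passed, where 0.0855% did (0.0342% higher and 0.0513% lower), and that gene was FGFRL1 on the lower side. With siSRSF1-2, 0 of 8 passed in limma, where 4.95% of all genes did (2.22% higher and 2.73% lower). The last count was also 0 in voom on the recovered reads. With the fold limit dropped and an unadjusted p under 0.05, 3 of 8 were counted with siSRSF1-2 (FGF1, FGF2 and FGFR4), where 40.3% of all genes tested were, and 5 in each other comparison, where 28.8% were with siSRSF1-3, 26.3% with OE-LINC01134 and 42.1% between the siRNAs. By the adjusted p alone, 3 of 8 lay under 0.05 with siSRSF1-2 beside 26.8% of all genes, 3 with siSRSF1-3 beside 1.28%, 1 with OE-LINC01134 beside 1.18% and 1 between the siRNAs beside 0.0855%.

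In each comparison 5 of the 8 FGF genes did not overlap between groups. Over all genes tested, 49.5% did not overlap with siSRSF1-2, 37.2% with siSRSF1-3, 30.6% with OE-LINC01134 and 54.6% between the siRNAs. The median log2 fold change of the 8 genes was 0.09, -0.09 and -0.12 in the 3 comparisons with blank, in that order, beside 0.02, -0.01 and 0.05 over all genes. Scaling by the read total of each library moved the median of all genes to -0.26 for siSRSF1-3 against blank and to -0.31 between the siRNAs, and with the same FPKM sum in every library to -0.43 and -0.57. In siSRSF1-3 against blank, FGF21 differed by 1.56 and 1.38 under these scalings (limma adjusted p = 0.0385 and 0.0799). FGF2 differed by 0.82 and 0.63 (limma adjusted p = 0.0892 and 0.221), and FGFRL1 by -1.61 and -1.79 (limma adjusted p = 0.0595 and 0.0883). Relative to the median of all genes, the values were 1.82 and 1.81, 1.07 and 1.06, and -1.36 and -1.36. Subtracting the median nearly cancels any rescaling of whole libraries, so these relative values do not test the scaling.

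**Figure D4:**
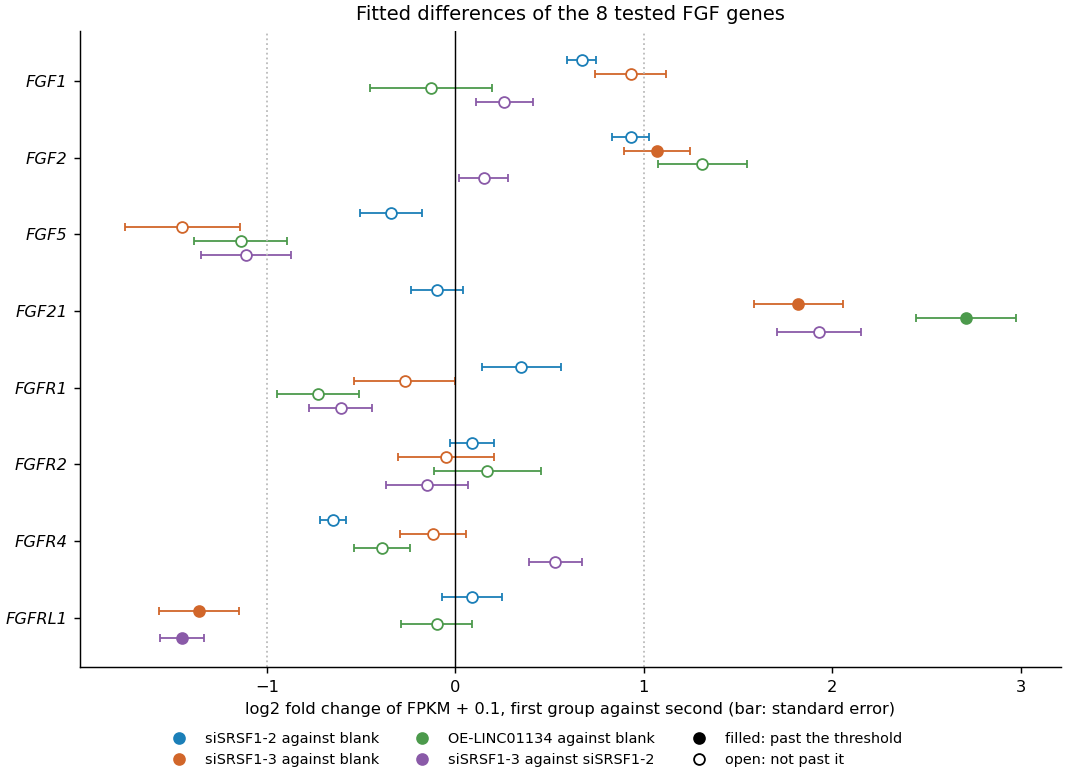
Log2 fold change of FPKM + 0.1 with its SE for the 8 tested FGF genes in the 4 comparisons, with filled points past the threshold and dotted lines at the minimum fold. The filled points are FGF21 (1.82 and 2.71), FGF2 (1.07) and FGFRL1 (-1.36 and -1.45).

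The other genes of the pathway were taken from 9 lists of 103 genes, of which 70 passed the filter. With siSRSF1-2, 6 of these passed the threshold, all lower than in blank, where 4.95% of all genes passed and 2.73% were lower. With siSRSF1-3, 4 passed, again all lower, where 1.26% of all genes passed and 0.929% were lower. With OE-LINC01134 and between the siRNAs, 0 passed in limma, with 22 and 40 of 70 at an unadjusted p under 0.05, beside 26.3% and 42.1% of all genes.

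Heparan sulfate proteoglycans, which present FGF ligands to their receptors, held several of the genes that fell. SDC1 (syndecan 1) had FPKM of 32.2, 20.5 and 21.3 in blank, 7.15, 6.51 and 5.91 with siSRSF1-2, 9.72, 9.53 and 6.73 with siSRSF1-3, and 16.8, 30.3 and 16.4 with OE-LINC01134. It fell by a log2 fold change of -1.87 with siSRSF1-2 (limma adjusted p = 0.00242) and of -1.49 with siSRSF1-3 (limma adjusted p = 0.0498). With siSRSF1-2 the glypican genes GPC1 (log2 fold change -1.08, limma adjusted p = 0.00219) and GPC4 (-1.29, limma adjusted p = 0.00602) also fell. In the list of 20 co-receptors, binding proteins and proteoglycans, 14 were tested, 3 passed with siSRSF1-2 (4.95% of all genes did) and 1 with siSRSF1-3 (1.26% did). Of the 14, 5 were above and 9 below blank with siSRSF1-2, and 4 and 10 with siSRSF1-3. The list's median log2 fold change was -0.15 and -0.39, beside 0.02 and -0.01 over all genes. Without blank replicate 1, GPC1 differed by -0.98 and was no longer called.

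Among the enzymes that make and edit heparan sulfate, EXT2, a subunit of the chain polymerase, fell with siSRSF1-3 from a mean FPKM of 33.4 ± 1.46 (SD, n = 3) in blank to 12.7 ± 1.49 (SD, n = 3), a log2 fold change of -1.39 (limma adjusted p = 0.0377). All 8 tested genes of this list had a negative log2 fold change with siSRSF1-3, with a median of -0.34 beside -0.01 over all genes, and the other 7 did not pass. SULF2, an extracellular sulfatase that removes sulfate from the chains, lay under the filter and is named after its values were seen. It had 260 and 281 reads in blank replicates 2 and 3, but 21 in blank replicate 1 and between 8 and 62 in the other 9 libraries.

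Of 19 adaptor and RAS-ERK relay genes, 18 were tested and 0 passed in limma in any comparison, with 12, 4 and 3 at an unadjusted p under 0.05 in the 3 comparisons with blank and 11 between the siRNAs. Over all genes the shares at that p were 40.3%, 28.8%, 26.3% and 42.1%, in the same order. With siSRSF1-2, PTPN11 (the phosphatase SHP2) differed by 0.56 on the log2 scale (limma adjusted p = 0.00347), under the minimum fold. With siSRSF1-3, PTPN11 differed by -0.66 (limma adjusted p = 0.214), and the siRNAs differed by -1.22 (limma adjusted p = 0.0801). Of the 18 genes, 13 were above blank with siSRSF1-2, 6 with siSRSF1-3 and 13 with OE-LINC01134.

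Of 11 feedback inhibitors, 7 were tested. With siSRSF1-2, 3 of these were above and 4 below blank, with siSRSF1-3 1 and 6, and with OE-LINC01134 3 and 4. The list's median log2 fold change was -0.06, -0.39 and -0.21 in that order, beside 0.02, -0.01 and 0.05 over all genes. DUSP6, the ERK phosphatase, fell with siSRSF1-2 by a log2 fold change of -1.30 (SE 0.358, limma adjusted p = 0.0429), from FPKM of 0.912, 2.27 and 2.05 in blank to 0.729, 0.482 and 0.615. This call was lost in 13 of 18 alternatives. SPRY4, a Sprouty inhibitor whose gene lies 265722 bases from FGF1 on chromosome 5, was under the filter and is named after its values were seen. It had 284 and 291 reads in blank replicates 2 and 3 and 0 reads in blank replicate 1 and in all 9 other libraries. Its presence therefore separated 2 blank libraries from the remaining 10, not blank cells from the other groups. Blank replicate 1 also had the lowest FGFR1, FGFR3, FGFRL1 and DUSP6 of its group. Without blank replicate 1, DUSP6 differed by -1.69 with siSRSF1-2, and without blank replicate 2 or 3 by -1.07 or -1.14, neither of which passed the threshold.

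Transcription targets of ERK had values on both sides of blank. CCND1, the gene of cyclin D1, fell with siSRSF1-2 (log2 fold change -1.55, limma adjusted p = 0.00168) and with siSRSF1-3 (-2.46, limma adjusted p = 0.0184), from a mean FPKM ± SD over 3 libraries of 33.3 ± 6.17 to 11.2 ± 0.546 and 5.93 ± 0.717. PHLDA1 fell with siSRSF1-2 (-1.34, limma adjusted p = 0.0111) and with siSRSF1-3 (-1.98, limma adjusted p = 0.0441). With OE-LINC01134, CCND1 had FPKM of 8.29, 17.6 and 8.64 and PHLDA1 of 0.949, 3.52 and 0.780. Both genes thus lay below every blank library there too, without passing the threshold, so the lower values were not particular to the siRNA groups. The other 8 genes of this list did not pass in any comparison. Of the 4 pathway calls with siSRSF1-3, those of SDC1, EXT2, PHLDA1 and CCND1 were lost in 11, 9, 9 and 6 of 18 alternatives. Of the 10, 5 were above and 5 below blank with each siRNA, and the list's median was -0.08 with siSRSF1-2, -0.04 with siSRSF1-3 and -0.74 with OE-LINC01134, beside 0.02, -0.01 and 0.05 over all genes.

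FGF21 belongs to the stress programme of the transcription factor ATF4, and 9 genes of that programme were all tested. None passed the threshold in any comparison in limma, with 5, 4 and 4 at an unadjusted p under 0.05 in the 3 comparisons with blank and 7 between the siRNAs, beside the same shares of all genes (40.3%, 28.8%, 26.3% and 42.1%). Of these 9 genes, 7 were above blank with siSRSF1-2, 6 with siSRSF1-3 and 9 with OE-LINC01134. The list's median log2 fold change was 0.40 with siSRSF1-2, 0.77 with siSRSF1-3 and 0.52 with OE-LINC01134, beside 0.02, -0.01 and 0.05 over all genes. Its members did not follow FGF21 alike, as examples chosen after their values were seen show. ATF4 itself had FPKM of 311, 298 and 296 in blank, 237, 228 and 229 with siSRSF1-2, 816, 579 and 381 with siSRSF1-3, and 365, 337 and 354 with OE-LINC01134. TRIB3 was highest with siSRSF1-3 (377, 324 and 211) and had 136, 114 and 134 with OE-LINC01134, where FGF21 was highest. In blank TRIB3 had 54.9, 125 and 124, and with siSRSF1-2 181, 174 and 171. ASNS, the asparagine synthetase gene, had 18.7, 10.5 and 17.8 with OE-LINC01134 and between 4.27 and 7.73 elsewhere.

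**Figure D5:**
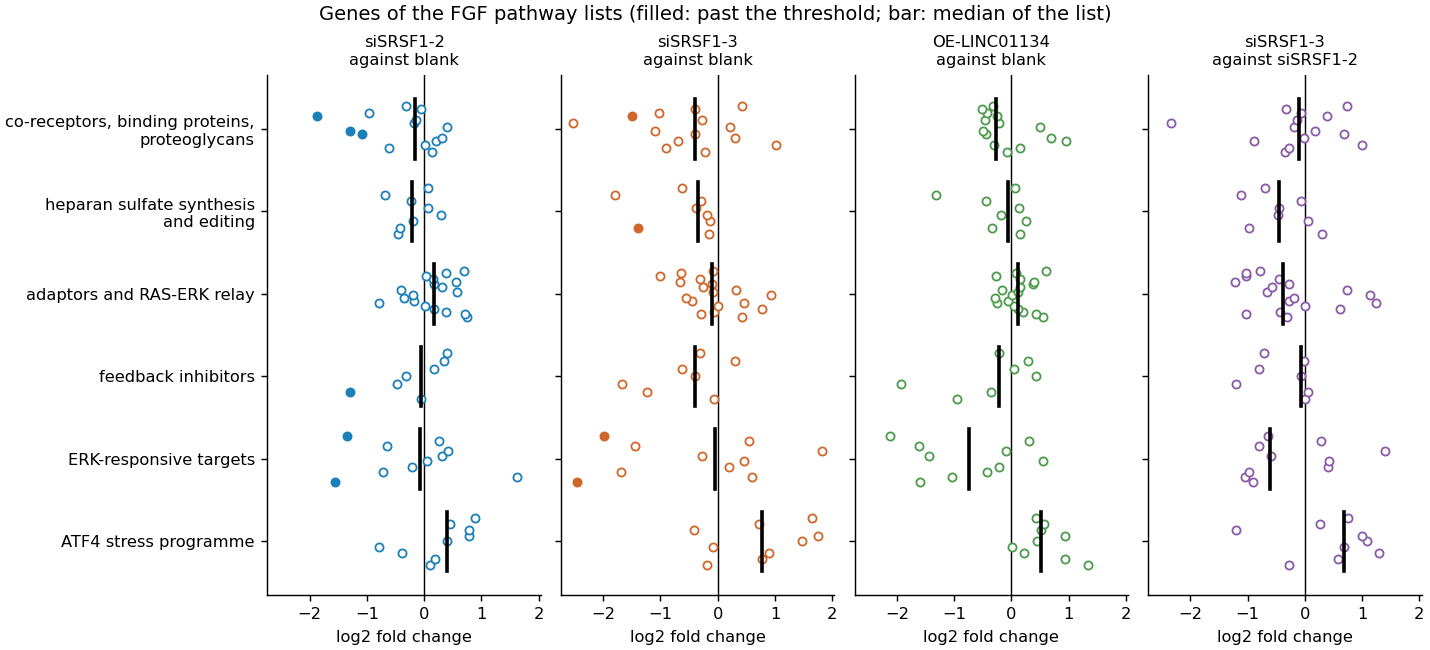
Log2 fold change of each tested gene of 6 FGF pathway lists in the 4 comparisons, with filled points past the threshold and a black bar at each list's median. The filled points are all on the lower side, 6 with siSRSF1-2 and 4 with siSRSF1-3, and the ATF4 list has medians of 0.40, 0.77 and 0.52 against blank.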

How the data were processed

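RNA of 12 U2OS libraries was sequenced by the authors. The supplementary methods describe poly-A selection and paired-end reads, with a NEBNext kit. The labels name a SMARTER kit instead, so the library preparation is uncertain. The authors deposited FPKM per gene with gene lengths and coordinates; the aligner, the counting program, strand use and the human build are not given in the sources used here. Reads per gene were recovered from FPKM and gene length, and 100% of values came out whole (tolerance 0.001 read). Symbols were matched through full names (129 of 129; the NDST2 name stands on 2 identifiers, and the higher was taken). Reads of 0 allow up to 3 by counting error alone.

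Genes averaging 0.5 FPKM or more over all libraries were fitted pairwise, 3 libraries against 3, with limma 3.58.1 in R 4.3.3 (lmFit, eBayes with trend) on log2(FPKM + 0.1), with Benjamini-Hochberg adjustment over 17538 genes. The script was tested on simulated data. Named were all 9 FGF genes, SRSF1, LINC01134, overlapping genes, list genes past the threshold (otherwise up to 2 with the smallest adjusted p) and the 3 genes with the highest Pearson r for a gene. The genes and lists were chosen with earlier results of these data known. Alternatives were other pseudocounts, filters, scalings, fits, a replicate block and left-out libraries. Replicate numbers did not pair samples (correlations of deviations from -0.081 to 0.042). No human sequence was used here, and splice forms were not analysed. A gene that the naming rule covers is not reported here.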

Additional observations from a re-analysis of the deposited data

Results flagged for a closer look

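FGFRL1 differed between the siRNAs: its log2 fold change was -1.45 in siSRSF1-3 against siSRSF1-2, tested directly in limma (adjusted p = 0.0375), with all 3 siSRSF1-3 libraries below all 3 siSRSF1-2 libraries.

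FGFR1 lay on opposite sides of the blank mean in 2 groups, above it in 3 of 3 siSRSF1-2 libraries and below it in 3 of 3 OE-LINC01134 libraries. The log2 fold change of OE-LINC01134 minus that of siSRSF1-2 was -1.08, and this difference was not tested. Blank replicate 1 alone lay at 4.93 FPKM against 8.55 and 7.97 in the other blank libraries.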

How the results depend on the processing

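Of 748 values for 42 gene results under the alternatives, 612 kept direction and call, 102 lost the call, 23 gained it and 11 changed sign. The causes were not tested. Among calls of all genes and then of the FGF genes, siSRSF1-2 against blank (868 and 0) gave 4702 and 3 without a minimum fold, 379 genes with a pseudocount of 1, 314 genes in 1 fit over all 4 groups, and 1 FGF gene each without a filter (FGFR3) and with the same FPKM sum in every library (FGF2). For siSRSF1-3 against blank (221 and 3) the counts were 63 and 1 with a pseudocount of 0.01, 116 and 0 without a filter, 69 and 1 with own read totals, 1 and 0 with the same FPKM sum, 2422 genes in 1 fit, 628 genes in voom, and 1 FGF gene (FGF21) in eBayes without trend. For OE-LINC01134 (149 and 1) they were 81 and 0 without a filter, 689 and 3 in 1 fit, 306 and 3 in voom. Between the siRNAs (15 and 1) they were 84 and 2 with a pseudocount of 1, 1 and 0 with 0.01, 109 genes without a filter, 36 and 2 at a mean FPKM of at least 1, 8 and 0 with the same sum, 2731 and 3 in 1 fit, 118 and 2 in voom.

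With the replicate block, whose numbers did not pair the samples, the counts were 681 and 0 for siSRSF1-2, 0 and 0 for siSRSF1-3, 4 and 0 for OE-LINC01134 and 0 and 0 between the siRNAs. Averaging near-alike replicates, an alternative chosen after seeing the data, gave 0 and 0 for siSRSF1-3 and 1 and 0 for OE-LINC01134. Leaving out single libraries gave 534 to 1188 genes and 0 to 0 FGF genes for siSRSF1-2 (highest without blank replicate 1), 0 to 4184 and 0 to 5 for siSRSF1-3 (highest without its replicate 3), 1 to 1540 and 0 to 3 for OE-LINC01134 (highest without its replicate 2), and 0 to 5358 and 0 to 3 between the siRNAs (highest without siSRSF1-3 replicate 3). In the settings with 0 genes in limma, 1738 to 2166 genes for siSRSF1-3 and 1374 to 1897 between the siRNAs were past the fold at an unadjusted p under 0.05.

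The sign changed for FGF21 (0.03, same sum) and FGFRL1 (from -0.09 without blank replicate 1 to 0.21 without blank replicate 2) with siSRSF1-2, for FGFR2 (from -0.23 without siSRSF1-3 replicate 3 to 0.10 without its replicate 1) with siSRSF1-3, and for FGF1 (from -0.34 without replicate 1 to 0.26 without replicate 2) and FGFRL1 (from -0.28 without blank replicate 1 to 0.01 without blank replicate 2) with OE-LINC01134. Between the siRNAs it changed for FGF1 (-0.04 with own totals, -0.31 with the same sum), FGF2 (-0.16 and -0.42), FGFR4 (-0.04, same sum) and FGFR2 (from -0.32 without siSRSF1-3 replicate 3 to 0.00 without its replicate 1), none of which was called. The higher share of calls went from 44.8% to 51.2% and 64.0% for siSRSF1-2 with own totals and the same sum. It went from 26.2% to 15.9% and 100% for siSRSF1-3, and from 30.2% to 31.1% and 44.6% for OE-LINC01134. Between the siRNAs it fell to 12.5% with the same sum (6 of 15 calls were higher before). The 100% stood for 1 call higher and 0 lower, and the 12.5% for 1 higher and 7 lower. Depth limits FGFR3 (6 to 150 reads), KLB (11 to 50 reads) and the other genes under the filter.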
